A study of Homo sapiens with 8 samples.

Results

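Ribosome footprints were counted in the second extended region of transcripts annotated as targets of nonsense-mediated decay. The transcripts were chosen by their measured values, with a mean of at least 10 RPKM (reads divided by region length and by library size) for coding and at least 0.5 RPKM for the second extended region over 8 libraries. The rule kept 1618 transcripts of the 82586 entries in the tables. Of 17577 decay-target transcripts, 15055 lay under the coding minimum, and 904 of the remaining 2522 lay under the second extended minimum. By the same minimums, 2484 of 12976 protein-coding transcripts with enough coding density were kept for comparison.

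The study profiled ribosomes in transgenic cells, which are HEK293T cells that stably carry a pyrrolysine tRNA (Mb pyltRNA), and in plain HEK293T cells. Transgenic libraries also held dense footprints on a synthetase and a GFP39 transgene, given below, so the lines differ in more than the tRNA. The 4 groups were transgenic cells with 1 mM NAEK, transgenic cells without NAEK, HEK293T cells with 1 mM NAEK and HEK293T cells without NAEK, with 2 libraries each. HEK293T is a human embryonic kidney line with the SV40 large T antigen, and NAEK is a lysine derivative that the pyrrolysine system can insert at UAG stop codons. The labels state neither whether the transgenic line is 1 clone nor whether replicates were separate cultures, so the p-values given here speak of the variation among these libraries, which may be technical.

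Nonsense-mediated decay removes mRNAs on which a ribosome stops well before the last exon junction. Many human genes make such transcripts by alternative splicing, with a premature stop codon inside a frame that goes on in the full-length isoform of the same gene. Footprints are short, and a footprint that lies on a stretch shared by isoforms can be assigned to each of them. Transcripts without a premature stop normally carry few footprints after the coding region. The transcripts are named by their Ensembl IDs, because the tables give no gene symbols, and the extended regions were taken as the stretches after the first stop codon and after the next one.

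Libraries held 12923243 to 20569590 reads, with 1.01 to 1.15% in second extended, 1.29 to 1.48% in first extended and 89.0 to 89.1% in coding regions. As a check of the labels, the synthetase transgene had a coding density of 5538 to 5820 RPKM in the 4 transgenic libraries, against 7.24 to 11.4 RPKM in the 4 HEK293T libraries. The GFP39 transgene stood at 3664 to 6980 RPKM in transgenic and 8.15 to 21.7 RPKM in HEK293T libraries. Marker genes of the line were not analysed here. Footprint density in bulk samples cannot tell less mRNA per cell, fewer ribosomes per mRNA and fewer cells with the transcript apart.

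Second extended regions of the 1618 decay-target transcripts carried nearly as many footprints per length as their coding regions. Their second extended density had a median of 15.5 RPKM, with quartiles of 5.90 and 39.0 RPKM and a highest mean of 1178 RPKM. Their coding density had a median of 19.7 RPKM. Together they held 608152 second extended reads, 41.5% of all second extended reads in the tables, along with 23.3% of first extended and 2.45% of coding reads. These levels chose the transcripts and are given as a description. The reads were concentrated, since the 10 most read transcripts held 21.6% of them and the 100 most read held 59.3%. A transcript had a median of 82.5 second extended reads over the 8 libraries, with quartiles of 21 and 260.5 reads.

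The ratio of second extended to coding density had a median of 0.723 in decay-target transcripts, against 0.0421 in protein-coding transcripts kept by the same minimums. The quartiles were 0.270 and 1.48 in decay-target and 0.0149 and 0.127 in protein-coding transcripts. In 45.7% of decay-target transcripts the second extended density was 0.5 to 2 times the coding density, and in 16.9% it was more than 2 times as high. Among protein-coding transcripts those classes held 9.34% and 3.34%, and 71.4% had a second extended density under 0.1 of the coding density, against 11.8% of decay-target transcripts. The second extended region was denser than the coding region in 609 decay-target transcripts (37.6%) and in 196 protein-coding transcripts (7.89%). No test was made of these differences, since transcripts are not replicates and second extended density chose both sets. The sets differed in coding length too, with medians of 255 nt in decay-target and 645.5 nt in protein-coding transcripts. Median coding density was 19.7 against 39.4 RPKM, and median second extended reads were 82.5 against 9. The gap was smaller with at least 50 second extended reads. There the median ratio in a library was 1.04 to 1.17 in 971 decay-target and 0.503 to 0.577 in 473 protein-coding transcripts.

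**Figure D1:**
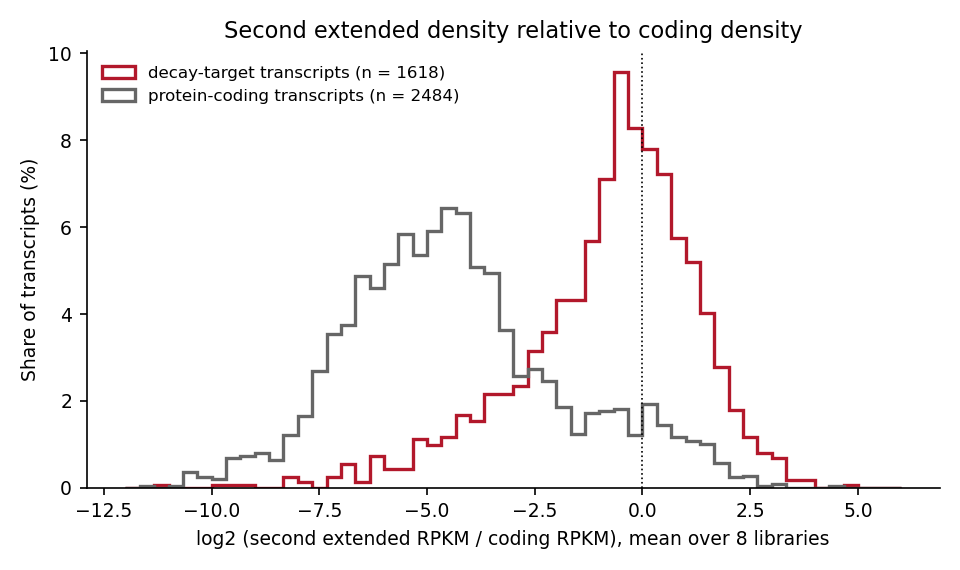
Share of transcripts (%) by the log2 ratio of mean second extended to mean coding density (RPKM over 8 libraries), for 1618 decay-target (red) and 2484 protein-coding (grey) transcripts chosen by the same minimums. The dotted line marks equal density, with the decay-target median of 0.723 just below it and the protein-coding median of 0.0421 far to the left.

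The order of the densities held across libraries for many transcripts. Among 971 decay-target transcripts with at least 50 second extended reads, the second extended region was denser than the coding region in 8 of 8 libraries for 331 and less dense in 8 of 8 for 251. For the other 389 the order differed between libraries. The ratio was higher in short regions, with a median of 1.79 in 239 regions of up to 30 nt, 1.12 in 454 regions of 31 to 100 nt and 0.804 in 278 longer regions. A minimum of 50 reads requires a higher density in a short region, which favours high ratios there. Protein-coding regions with 50 reads ran the same way, with medians of 1.33, 0.741 and 0.191. Second extended regions had a median length of 39 nt in the decay-target set, and in all 971 of them with at least 50 reads the length recovered from the values was a whole number of codons.

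The first extended region carried footprints in most of these transcripts too. Its density had a median of 0.532 of the coding density in decay-target transcripts, against 0.0651 in protein-coding transcripts. In 1464 decay-target transcripts with a first extended read, the second extended density was a median of 1.23 times the first extended density, with quartiles of 0.530 and 3.03. The second region was the denser one in 834 of these 1464 (57.0%), against 816 of 2318 protein-coding transcripts (35.2%). The remaining 154 decay-target transcripts had no first extended read in any library. No length could be recovered without reads, so whether these have a first region, and how long, is not known. Among 775 transcripts with at least 50 second and 10 first extended reads, the second region was denser in 8 of 8 libraries for 269 and less dense in 8 of 8 for 137.

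Both extended regions were dense together in most transcripts chosen for at least 50 second extended reads. Of 888 transcripts with at least 50 second extended reads and any first extended read, 546 (61.5%) had both regions at 0.5 or more of the coding density. A sparse first region under 0.1 of the coding density beside a second region of at least 0.5 was found in 67 (7.55%), and in 43 of these the first region was at least 30 nt long. The opposite arrangement, a first region of at least 0.5 beside a second region under 0.1, was found in 0 of the 888. All 888 were required to have at least 50 second extended reads, which favours a dense second region. Neither that count nor the 61.5% therefore says much about transcripts at large. Both regions were under 0.1 in 12. Across transcripts, Spearman's rho was 0.615 between second and first extended density (775 transcripts) and 0.520 between second extended and coding density (971 transcripts). These transcripts share libraries, and some share a gene.

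**Figure D2:**
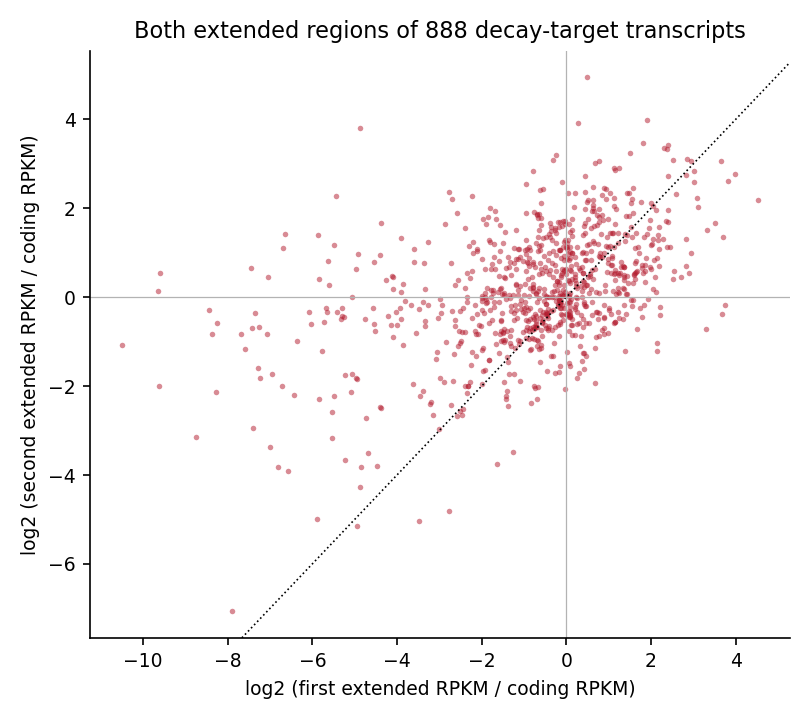
Log2 ratio of second extended to coding density against log2 ratio of first extended to coding density (RPKM, means over 8 libraries), 1 point for each of 888 decay-target transcripts with at least 50 second extended reads and a first extended read. The dotted line marks equal density in both extended regions. The 67 transcripts with a sparse first and a dense second region lie at the left, some of them far above a vertical value of 0.

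Among the 8 transcripts with the most second extended reads, the first extended region ranged from dense to without a read. ENST00000572105, with a second region of 279 nt and 24883 reads, was dense in all 3 regions, at means of 655 RPKM in the second extended, 725 RPKM in the first extended and 344 RPKM in the coding region. ENST00000460265 had 24119 reads in a second region of 831 nt and no first extended read, with means of 208 RPKM in the second extended and 70.9 RPKM in the coding region. ENST00000522761 likewise had no first extended read, and its second region of 969 nt stood at 3.81 times its coding density. In ENST00000584906, also without a first extended read, the second region of 351 nt stood at 0.426 of the coding density.

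ENST00000474384 had a first region of 33 nt that was almost empty, with 16 reads in all, between a coding region of 522 RPKM and a second region of 148 RPKM that was 681 nt long. ENST00000601306 and ENST00000420712 had short second regions of 162 and 54 nt at 997 and 1178 RPKM, which were 2.44 and 5.05 times their coding densities. The last of the 8, ENST00000552671, had the longest second region of all, 6282 nt, at 8.17 RPKM beside a coding region of 150 nt at 11.7 RPKM. There the reads rested on the length of the region and not on its density.

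Among transcripts with at least 50 second and 10 first extended reads, the highest ratio of second to first extended density was 152, in ENST00000413424. Its first region of 108 nt held 27 reads while its second region of 36 nt held 1375. In every library its second extended density was above its coding density, with 203 and 204 RPKM in transgenic cells with NAEK, 268 and 315 RPKM without NAEK, 285 and 338 RPKM in HEK293T cells with NAEK and 270.3 and 318 RPKM without NAEK. ENST00000503610 (ratio 37.8), ENST00000498274 (35.3) and ENST00000586335 (22.7) followed ENST00000474384 (42.3). In ENST00000498274 both extended regions were long, 123 nt for the first at 2.36 RPKM and 492 nt for the second at 83.3 RPKM, and the second region varied only from 77.9 to 90.6 RPKM over the 8 libraries.

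Under the same minimums of reads, the lowest ratios of second to first extended density were 0.0608 in ENST00000557901, 0.0622 in ENST00000424959 and 0.0667 in ENST00000633158. ENST00000557901 and ENST00000633158 had the same lengths in all 3 regions and a first region of 6 nt at 803 and 821 RPKM. A stretch of 6 nt is shorter than a footprint. The second regions of both, at 48.8 and 54.7 RPKM, were near their coding densities of 63.2 and 61.3 RPKM.

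The highest ratios of second extended to coding density were 30.8 in ENST00000585242, 15.8 in ENST00000411875, 15.2 in ENST00000509531, 14.1 in ENST00000527337 and 11.1 in ENST00000448549. ENST00000585242 had a second region of 33 nt at 456 and 229.8 RPKM in transgenic cells with NAEK, 272 and 327 RPKM without NAEK, 398 and 322 RPKM in HEK293T cells with NAEK and 409 and 318 RPKM without NAEK, against coding densities of 7.31 to 14.3 RPKM. The second regions of ENST00000411875 and ENST00000509531 came out as 3 nt, a single codon. The density of ENST00000411875 there was 1162 and 671 RPKM in transgenic cells with NAEK, 882 and 417 RPKM without NAEK, 1183 and 309 RPKM in HEK293T cells with NAEK and 1159 and 359 RPKM without NAEK. Replicates within a group thus differed more than groups did. ENST00000527337 combined a first region of 45 nt with 3 reads and a second region of 87 nt with 2449 reads, at 157 to 234 RPKM over the libraries.

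Some transcripts repeated each other. Of the 971 with at least 50 reads, 136 shared the lengths of all 3 regions with another entry. A first region without reads counted as length 0 here. Of the 136, 115 were within 1.2-fold of the other entry in second extended and in coding reads. ENST00000629090 and ENST00000466227, for example, both had regions of 329, 57 and 90 nt and held 5506 and 5435 second extended reads. ENST00000485027 and ENST00000494339 held 4866 and 4825 reads in second regions of 1188 nt. Of 70 such pairs, 63 joined decay-target transcripts and 7 a decay-target with a protein-coding transcript. Counts of transcripts below therefore include entries that are not independent.

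**Figure D3:**
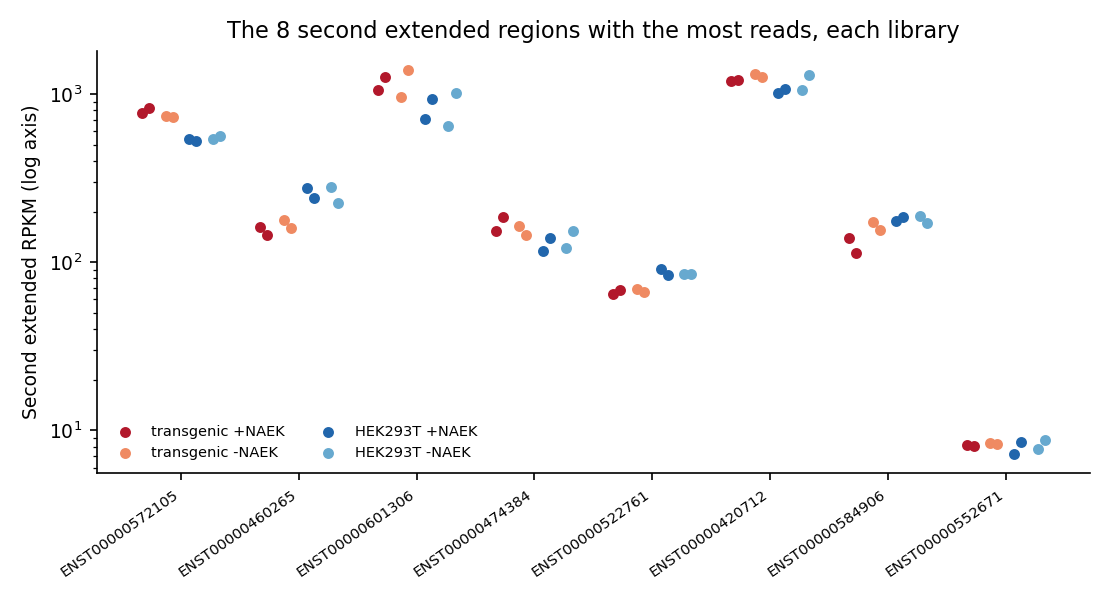
Second extended density (RPKM, log axis) in each of 8 libraries for the 8 decay-target transcripts with the most second extended reads; each point is 1 library, coloured by group. In ENST00000572105 the 4 transgenic libraries lie at 726 to 820.4 RPKM, above the 4 HEK293T libraries, and in ENST00000460265 and ENST00000522761 they lie below them.

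Whether second extended footprints differ with NAEK and between the lines was asked first of their sum. Summed second extended reads of the 1618 transcripts were 20.5 and 20.3% of their summed coding reads in transgenic cells with NAEK and 20.3 and 20.5% without NAEK. In HEK293T cells they were 20.6 and 20.0% with NAEK and 20.1 and 20.0% without NAEK. The group means were 20.44 ± 0.134% and 20.38 ± 0.119% in transgenic cells with and without NAEK, and 20.30 ± 0.387% and 20.03 ± 0.0807% in HEK293T cells with and without NAEK (SD, n = 2 each). With NAEK the mean was 0.0600 percentage points higher in transgenic cells and 0.271 higher in HEK293T cells, and transgenic cells stood 0.247 above HEK293T cells over both NAEK states. The pooled SD between replicates was 0.217 percentage points. Libraries with and without NAEK overlapped in both lines, as did transgenic and HEK293T libraries with NAEK, while without NAEK both transgenic libraries lay above both HEK293T libraries, by a mean difference of 0.352 percentage points. No p is given for a sum over transcripts chosen on these data. Over transcripts with at least 10 second extended reads alone, the differences turned for NAEK in transgenic cells, at -0.213, and between the lines with NAEK, at -0.350, and pooled, at -0.0549 percentage points. Those for NAEK in transgenic cells and between the lines with NAEK also turned without the 10 most read transcripts, at -0.0157 and -0.115, and with 1 transcript for each set of identical second extended reads, at -0.178 and -0.0945 percentage points.

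Relative to summed first extended reads, summed second extended reads were 138 and 136% in transgenic cells with NAEK, 136 and 140.1% without NAEK, 139 and 137% in HEK293T cells with NAEK and 137 and 135% without NAEK. Groups overlapped in this measure apart from HEK293T cells, where both libraries with NAEK lay above both without it. Among protein-coding transcripts kept by the same minimums, the same measure was 57.4 and 62.4% in transgenic cells with NAEK and 83.8 and 88.1% without NAEK, against 82.0 to 93.7% in HEK293T cells. There first extended reads were 1.47 ± 0.0404% of coding reads in transgenic cells with NAEK and 0.969 ± 0.0155% without NAEK (SD, n = 2 each). In HEK293T cells they were 1.13 ± 0.121% with NAEK and 0.954 ± 0.0623% without NAEK (SD, n = 2 each). Both HEK293T libraries with NAEK lay above both without it in this measure. The decay-target transcripts held 14.6 to 14.9% first extended reads over all 8 libraries.

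Medians over transcripts overlapped between the groups. Over the 971 transcripts with at least 50 reads, the median ratio of second extended to coding density was 1.10 and 1.04 in transgenic cells with NAEK, 1.12 and 1.09 without NAEK, 1.17 and 1.09 in HEK293T cells with NAEK and 1.15 and 1.05 without NAEK. Replicate 1 lay above replicate 2 in all 4 groups, so overlap alone does not show that the groups were alike. Within each replicate number, transgenic cells with NAEK had the lowest median, which was not tested. The median ratio of second to first extended density over 775 transcripts ran from 1.26 to 1.34 over the libraries.

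**Figure D4:**
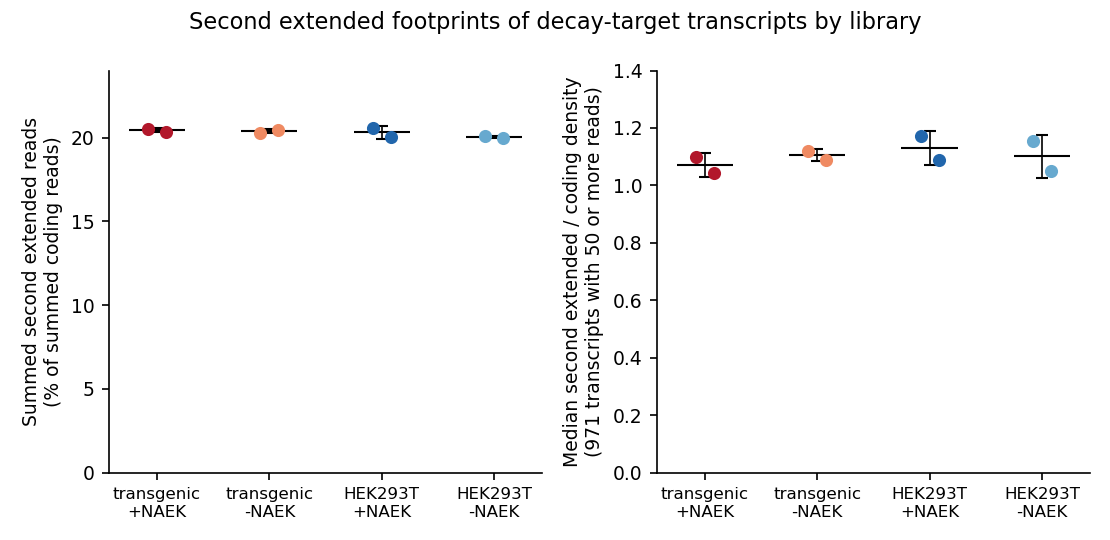
Left, second extended reads summed over 1618 decay-target transcripts in percent of their summed coding reads; right, median ratio of second extended to coding density over 971 of them. Points are libraries, the long line is the group mean and the bars are 1 SD of 2 libraries; sums stay between 20.0 and 20.6%.

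Single regions were tested with limma on log2(RPKM + 1) over 3238 second extended regions of the tables with enough reads, with p-values adjusted over all of them by the Benjamini-Hochberg method and a threshold of 0.05. Of the 1618 transcripts, 1105 had the reads to be tested. Fold changes on this scale understate those of low values. The minimums used means and sums over all 8 libraries and no comparison between groups.

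NAEK in transgenic cells changed 1 of the 1105 second extended densities, beside 0.0618% of all regions tested. The region was that of ENST00000589468, which fell. It is 9 nt long and held 0 and 0 reads in transgenic cells with NAEK, 3 and 5 reads without NAEK, 3 and 2 reads in HEK293T cells with NAEK and 4 and 3 reads without NAEK. Only transgenic cells with NAEK had no read, while their coding density of 64.8 and 69.0 RPKM lay within the 60.9 to 81.8 RPKM of the other libraries. The fitted log2 difference was -4.65 (SE 0.40, limma adjusted p = 0.0141), a value that depends on the pseudocount. A floor of 3 reads per library would be 19.4 and 25.8 RPKM in transgenic cells with NAEK. That is close to the 24.7 ± 7.83 RPKM (SD, n = 2) without NAEK, so the reads are too few for a fold. Adjusted p ran from 0.00307 to 0.131 over 13 alternatives, and 7 of them kept the call. It was lost without transgenic +NAEK replicate 2 (limma adjusted p = 0.103), transgenic -NAEK replicate 1 (0.107) or replicate 2 (0.131), and HEK293T +NAEK replicate 1 (0.0764) or replicate 2 (0.0763).

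Over the 1105 regions the median log2 difference with NAEK in transgenic cells was -0.01, beside 0.03 over all 3238. Of the 1105, 68 had an unadjusted limma p under 0.05. No share of all 3238 stands beside counts at an unadjusted p, here or below. They therefore do not show whether these transcripts exceed other regions. Relative to coding density, 1 region passed, again ENST00000589468 (log2 -4.48, SE 0.43, limma adjusted p = 0.0286), beside 0.0618% of all tested. This call was lost whichever 1 of the 8 libraries was left out, with limma adjusted p from 0.0584 to 0.208.

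ENST00000532444, with a second region of 30 nt, had the largest difference with NAEK in transgenic cells among tested transcripts with at least 200 reads. Its second extended density was 54.2 and 54.2 RPKM in transgenic cells with NAEK, on 28 and 21 reads, and 138 and 163 RPKM without NAEK, on 72 and 90 reads. In HEK293T cells it was 123 and 138 RPKM with NAEK and 168 and 142 RPKM without NAEK. Both transgenic libraries with NAEK lay below the other 6, while their coding densities of 77.5 and 89.9 RPKM lay within the range of the others, 70.5 to 109 RPKM. The log2 difference in transgenic cells was -1.45 (SE 0.20, limma adjusted p = 0.0975), which did not pass. It passed in 2 of 16 alternatives, both chosen after seeing the data. Both tested only the 662 regions with at least 200 reads. Limma adjusted p was 0.0237 without the replicate block and 0.0129 with it, and reached 0.375 over the 16. The log2 difference of the ratio to coding density was -1.67 (SE 0.31, limma adjusted p = 0.280). It passed in the same 2, with limma adjusted p = 0.0404 without the block and 0.0109 with it. Over the 16, limma adjusted p of the ratio reached 0.749. Between the lines with NAEK the density of ENST00000532444 differed by -1.25 (limma adjusted p = 0.165). That difference passed in 1 of 16, with the minimum of 200 reads and the block (limma adjusted p = 0.0423). Its limma adjusted p reached 0.462 over the 16. The share of all 662 regions that passed in the alternatives with at least 200 reads is not given.

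NAEK in HEK293T cells gave 0 calls by limma among the 1105 regions in density, beside 0.0% of all regions, with 33 at an unadjusted p under 0.05. The median log2 difference was 0.00, beside 0.03 over all regions. Relative to coding density there were also 0 calls by limma, beside 0.0% of all, with 36 at an unadjusted p under 0.05. The 2 lines were compared in their response through the interaction, which gave 0 calls by limma in density (46 at an unadjusted p under 0.05; 0.0309% of all regions called) and 0 relative to coding density (53; 0.0309%).

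Pooled over the lines, NAEK gave 1 call in density, ENST00000589468 (log2 -2.59, SE 0.29, limma adjusted p = 0.0454), beside 0.0926% of all regions. It was lost whichever 1 of the 8 libraries was left out, with limma adjusted p from 0.0961 to 0.331. Relative to coding density limma gave 0 calls, with 51 at an unadjusted p under 0.05 and 0.0309% of all regions called. Relative to first extended density it gave 0 calls, with 45 at an unadjusted p under 0.05 and 0.0% of all called.

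Without NAEK, limma called 0 of the 1105 regions between transgenic and HEK293T cells in density (47 at an unadjusted p under 0.05; 0.0309% of all regions called) and 0 relative to coding density (39; 0.0618%). With NAEK, 1 region passed in density, beside 0.0618% of all regions. This was ENST00000589468, lower in transgenic cells (log2 -3.99, SE 0.40, limma adjusted p = 0.0396), where its 0 reads stood against 3 and 2 reads in HEK293T cells, which is too few for a fold. It too was lost whichever 1 of the 8 libraries was left out, with limma adjusted p from 0.0712 to 0.250.

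Relative to coding density 2 regions passed with NAEK, beside 0.0926% of all. ENST00000589468 was lower in transgenic cells (log2 -4.07, SE 0.43, limma adjusted p = 0.0452). ENST00000616646, with a region of 24 nt, was higher (log2 4.32, SE 0.47, limma adjusted p = 0.0452), on 7 and 5 reads in transgenic cells and 0 and 0 reads in HEK293T cells with NAEK. Without NAEK it had 3 and 1 reads in transgenic and 4 and 2 reads in HEK293T cells. Its density in transgenic cells with NAEK was 16.5 ± 0.584 RPKM (SD, n = 2), 2.40-fold a floor of 3 reads per library in HEK293T cells. The 7 and 5 reads carry counting error as well, so this is no firm lower bound. Over 13 alternatives the adjusted p of either ran from 0.0141 to 0.210, and both calls were lost whichever 1 of the 8 libraries was left out.

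Pooled over NAEK, the lines differed past the adjusted threshold in 0 regions by limma in density (112 at an unadjusted p under 0.05; 0.0618% of all regions called), 0 relative to coding density (69; 0.0618%) and 0 relative to first extended density (73; 0.0%). The counts at an unadjusted p do not show whether these transcripts exceed other regions. The median log2 difference in density was -0.02, beside 0.00 over all regions. Of 796 transcripts tested with at least 50 reads, the 4 transgenic libraries lay above the 4 HEK293T libraries without overlap in 35 (4.40%, beside 4.1% of all 1561 such regions) and below in 41 (5.15%, beside 5.32%). For NAEK pooled over lines, 7 lay above (0.879%, beside 1.47%) and 10 below (1.26%, beside 0.769%). The 1561 regions include the 796 transcripts.

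In 3 of the 8 most read transcripts the lines did not overlap. The share among equally well-read regions was not counted, so this does not set them apart. ENST00000572105 had 775 and 820.4 RPKM in transgenic cells with NAEK and 745 and 726 RPKM without NAEK, against 540.3 and 528 RPKM in HEK293T cells with NAEK and 541 and 566 RPKM without NAEK. Its coding density moved along, at 381 to 449 RPKM in transgenic and 248 to 326 RPKM in HEK293T libraries, and the log2 difference between the lines of 0.49 (SE 0.11, limma adjusted p = 0.278) did not pass. ENST00000460265 went the other way, with 161 and 144 RPKM in transgenic cells with NAEK and 177 and 159.6 RPKM without NAEK, against 276 and 239.6 RPKM in HEK293T cells with NAEK and 281 and 225 RPKM without NAEK. Its log2 difference was -0.67 (SE 0.14, limma adjusted p = 0.270), and its coding density was 55.8 to 66.1 RPKM in transgenic and 74.6 to 86.0 RPKM in HEK293T libraries.

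In both transcripts the coding densities of the lines did not overlap either. ENST00000522761 had 65.1 to 69.6 RPKM in transgenic and 83.6 to 91.4 RPKM in HEK293T libraries, again without overlap (log2 -0.35, SE 0.13, limma adjusted p = 0.470). ENST00000601306, ENST00000420712, ENST00000474384 and ENST00000552671 overlapped between the lines. ENST00000584906 overlapped as well, and its lowest libraries were those of transgenic cells with NAEK, at 139.7 and 113 RPKM.

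Among non-overlapping transcripts with at least 50 reads, the largest line differences were found in thinly read regions. ENST00000514500 had 67.8 and 47.3 RPKM in transgenic cells with NAEK and 35.2 and 24.2 RPKM without NAEK, against 21.6 and 13.7 RPKM in HEK293T cells with NAEK and 12.9 and 9.45 RPKM without NAEK, on 70 reads in all (log2 1.49, SE 0.26, limma adjusted p = 0.211). ENST00000375167 (log2 1.33) and ENST00000588032 (log2 1.28) were the next higher ones. Of the 137 second extended reads of ENST00000375167, 51 came from transgenic +NAEK replicate 2. Its coding density did not overlap either, at 345 to 492 RPKM in transgenic and 222 to 344 RPKM in HEK293T libraries. On the lower side, ENST00000512394 had 13.4 to 20.7 RPKM in transgenic and 32.0 to 45.9 RPKM in HEK293T libraries, on 153 reads (log2 -1.20, SE 0.20, limma adjusted p = 0.194). ENST00000580998 (log2 -1.54) and ENST00000568077 (log2 -1.02) were the others. None of these 6 passed the test, with adjusted p from 0.194 to 0.387.

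For NAEK pooled over lines, ENST00000545467 (log2 1.05), ENST00000584216 (0.76) and ENST00000437711 (0.48) were the largest non-overlapping differences upward. ENST00000437711 had 22.4 and 22.4 RPKM in transgenic cells with NAEK and 14.1 and 14.1 RPKM without NAEK, and 22.0 and 24.2 RPKM in HEK293T cells with NAEK and 20.6 and 16.0 RPKM without NAEK. Downward they were ENST00000620065 (-0.95), ENST00000490078 (-0.90) and ENST00000532444 (-0.85). ENST00000490078 had 21.5 and 37.3 RPKM in transgenic cells with NAEK and 68.2 and 64.5 RPKM without NAEK, and 50.4 and 41.2 RPKM in HEK293T cells with NAEK and 62.2 and 77.7 RPKM without NAEK. None of these 6 passed, with limma adjusted p from 0.297 to 0.879.

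Differences at any depth could be larger but rested on few reads or few libraries. They are named after their values were seen. ENST00000526248, with a second region of 3 nt, had 232 and 980.1 RPKM in transgenic cells with NAEK and 479 and 1016 RPKM without NAEK, against 48.6 and 494 RPKM in HEK293T cells with NAEK and 0 and 567 RPKM without NAEK. The replicates of each group differed by more than 2-fold there, and the log2 difference of 3.24 between the lines did not pass (limma adjusted p = 0.635). ENST00000631846 (log2 4.59, limma adjusted p = 0.228) held 12 reads and ENST00000517603 (log2 -3.62, limma adjusted p = 0.303) held 27 reads.

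Differences were larger among thinly read regions than among well-read ones. Among 116 tested transcripts with at least 1000 second extended reads, the difference with NAEK in transgenic cells had a median size of 0.144 on the log2 scale and ran from -0.99 to 0.50, with a median SE of 0.228. With NAEK in HEK293T cells the median size was 0.0823 and the range -0.40 to 0.39. Between the lines, pooled over NAEK, the median size was 0.207 with a range of -0.67 to 0.78 and a median SE of 0.161. In 5 of the 116 the lines differed by more than 1.5-fold and in 0 by more than 2-fold. Among 309 transcripts with 10 to 49 reads, 70 differed by more than 2-fold between the lines and 108 with NAEK in transgenic cells, with median SEs of 0.518 and 0.732. For all 126 transcripts with at least 1000 reads, the highest of 8 libraries was a median of 1.54 times the lowest, and replicates of a group differed by a median of 1.14-fold.

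**Figure D5:**
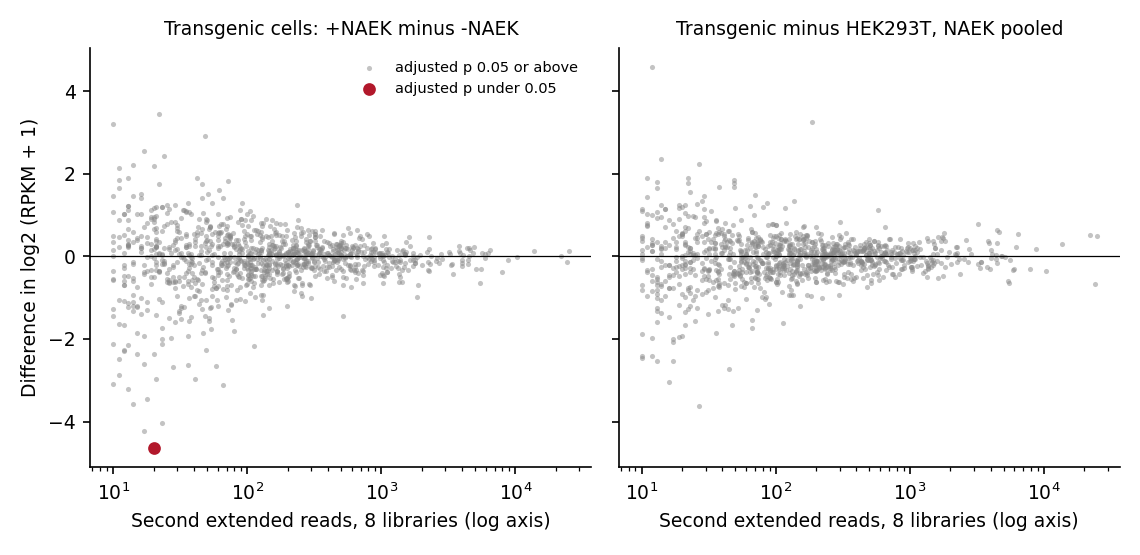
Difference in log2(RPKM + 1) of second extended density against second extended reads over 8 libraries (log axis), for 1105 decay-target transcripts; left, transgenic cells with minus without NAEK; right, transgenic minus HEK293T cells pooled over NAEK. The red point is ENST00000589468 with 20 reads, the only one past an adjusted p of 0.05 in these 2 comparisons.

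Near the thresholds of the rule the values rested on few reads. Just inside the second extended minimum were ENST00000442842 at 0.502 RPKM with 4 reads and ENST00000358604 at 0.506 RPKM with 1 read, and just outside were ENST00000261406 at 0.499 RPKM with 6 reads and ENST00000492721 at 0.488 RPKM with 10 reads. Just inside the coding minimum were ENST00000610357 and ENST00000615590, with 120 and 124 second extended reads, and just outside were ENST00000526262 and ENST00000559035, with 4 and 491 reads. In all, 227 of the 1618 transcripts had under 10 second extended reads, and 286 more had under 50 coding reads per library. These 513 entered the sums and ratios but no test.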

How the data were processed

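Ribosome-protected fragments of 8 libraries were used, made with TruSeq Ribo Profile kits per the labels' protocols. Per the submitters' processing notes, Bowtie 1.2.2 and hg38 were used. The sources used here do not give the annotation, the definition of the extended regions or the handling of reads shared by isoforms. The authors deposited RPKM for 3 regions of each transcript in 4 tables, 1 per group, per the file headers. Whole reads were recovered from the RPKM, within 0.01 reads, through the named length of the synthetase entry. Region lengths are the smallest at which every library has whole reads, so a thin region may be longer. PCR copies are not independent molecules, so the floor of 3 reads covers counting error only.

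limma 3.58.1 in R 4.3.3 (lmFit, eBayes with a variance trend) was fitted to log2(RPKM + 1), and to log2 ratios of RPKM + 1, over all 8 libraries with no factor other than group. Regions needed a mean of 50 coding reads and 10 second extended reads in all, which left 3238, and p-values were adjusted over all of them. The 7 comparisons were NAEK in each line, the lines at each NAEK state, the interaction, and both factors pooled. Alternatives were pseudocounts of 0.1 and 5, no read minimum, 50 reads, no variance trend, the replicate number as a block and each library left out, and, chosen after seeing the data, at least 200 reads and 1 of each set of near-identical entries. The step was tested on simulated data. Python 3.11.15, pandas 2.3.3, scipy 1.17.1 and matplotlib 3.10.9 did the rest.

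The transcripts named are the 8 with the most second extended reads, the 5 highest and 3 lowest by second to first (at least 50 second and 10 first extended reads) and the 5 highest by second to coding density (at least 50 second extended reads), all that passed a test, the 3 largest non-overlapping differences each way for either pooled factor (at least 50 reads), and those nearest the thresholds. Members and lists were chosen with earlier results of these data known. Lists of genes by symbol were not analysed here, because the tables hold transcript IDs only.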

Additional observations from a re-analysis of the deposited data

How the results depend on the processing

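Alternatives moved the small counts of called transcripts. The counts in this section have no share of all tested regions beside them, so they do not set the transcripts apart. The log2 changes of ENST00000589468 and ENST00000616646 kept their sign under the alternatives that tested them, passing in 18 cases and missing the threshold in 60, while differences of the summed share turned sign in 7 cases. Second extended density in the order NAEK in transgenic cells, the lines with NAEK and NAEK pooled gave 1, 1 and 1 calls. With a pseudocount of 0.1 the first of these gave 2, the lines with NAEK 5, NAEK in HEK293T cells 1, the interaction 1 and the lines pooled 1. With a pseudocount of 5 and with at least 50 reads all 3 gave 0. With no read minimum the lines with NAEK gave 0 and NAEK pooled 3. Leaving out 1 library gave 0 to 3 for NAEK in transgenic cells, 0 to 2 for the lines with NAEK, 0 to 1 without NAEK, 0 to 2 pooled, and 0 to 1 for NAEK pooled. Relative to coding density, a pseudocount of 0.1 gave 2 for NAEK in transgenic cells, 3 in HEK293T cells, 5 for the lines with NAEK and 1 for the interaction. A pseudocount of 5, no read minimum and at least 50 reads gave 0 for NAEK in transgenic cells and for the lines with NAEK, and no read minimum gave 1 for the lines without NAEK and 1 for NAEK pooled. Leaving out 1 library gave 0 for NAEK in transgenic cells and for the lines with NAEK, and 0 to 1 for the lines without NAEK and pooled. Relative to first extended density, leaving out 1 library gave 0 to 1 for NAEK pooled. The cause was not tested, apart from the read minimum of 50, under which ENST00000589468 and ENST00000616646 are not tested. Over transcripts with at least 10 reads the mean summed share was 24.3% of coding reads, against 20.3% over all, and the differences were -0.213 (NAEK in transgenic cells), -0.350 (lines with NAEK) and -0.0549 percentage points (lines pooled). Without the 10 most read it was 16.4%, with differences of -0.0157 for NAEK in transgenic cells, -0.115 between the lines with NAEK and 0.0244 pooled. With 1 transcript for each set of identical reads it was 21.2%, with -0.178 for NAEK in transgenic cells and -0.0945 for the lines with NAEK; this removed 43 transcripts, of at most 5 reads each, and none of the near-identical entries with at least 50 reads. Removing 55 of those, so that 1 of each set stayed, was chosen after seeing the data and gave 19.7%, with all 6 differences above 0. Depth limits the tests: 513 transcripts had too few reads, and among those with 10 to 49 reads the median SE between the lines was 0.518.

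As to the pairing, same-numbered replicates deviated from their group means with correlations of 0.0171 to 0.0939 over 3238 regions, 0.131 to 0.527 over 662 regions with at least 200 reads and 0.276 to 0.731 over 167 with at least 1000. The labels give the number no meaning. The fit with the replicate block gave 0 calls in density for the lines with NAEK and NAEK pooled, and 0 relative to coding density for NAEK in transgenic cells and the lines with NAEK. With at least 200 reads, chosen after seeing the data, density gave 0 for the lines with NAEK and NAEK pooled, and the ratio to coding 0 for the lines with NAEK. At that minimum, with or without the block, the 1 call for NAEK in transgenic cells in density and in the ratio was ENST00000532444, as was the 1 call in density for the lines with NAEK under the block, and not ENST00000589468. The replicate block with at least 200 reads, also chosen afterwards, gave 2 in density for the lines pooled and 0 for NAEK pooled, and relative to coding density 1 for the lines with NAEK and 3 pooled. No share of all 662 regions stands beside these counts, so they do not set the transcripts apart.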

Other observations

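Among transcripts with at least 1000 second extended reads, chosen here after their values were seen, some did not overlap between the lines. ENST00000425542, with a second region of 285 nt, had 95.0 and 124 RPKM in transgenic cells with NAEK and 98.9 and 108 RPKM without NAEK, against 58.7 and 58.3 RPKM in HEK293T cells with NAEK and 63.0 and 65.5 RPKM without NAEK. Its coding density was also higher in all 4 transgenic libraries, at 30.1 to 38.3 RPKM against 15.6 to 28.2 RPKM in HEK293T libraries. Its log2 difference between the lines was 0.78 (SE 0.15, limma adjusted p = 0.228) and missed the threshold. With the replicate number as a block and only regions of at least 200 reads, it passed (limma adjusted p = 0.0423), as did ENST00000460265. That fit was chosen after seeing the data, and each passed in only 1 of 16 alternatives. Over the 16, limma adjusted p of both reached 0.493. ENST00000624069 had 172 to 227 RPKM in transgenic and 113 to 159 RPKM in HEK293T libraries (log2 0.64, SE 0.16, limma adjusted p = 0.307).

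In other well-read regions replicates of a group differed widely. ENST00000588830, with a second region of 36 nt, had 189 and 254 RPKM in transgenic cells with NAEK and 342 and 555 RPKM without NAEK, and 228 and 569 RPKM in HEK293T cells with NAEK and 249 and 574 RPKM without NAEK. Replicate 2 was the higher one in all 4 groups, and the log2 difference with NAEK in transgenic cells, -0.99 (SE 0.55, limma adjusted p = 0.738), missed the threshold. ENST00000606722 showed the same order of replicates, with 128 and 189 RPKM in transgenic cells with NAEK, 204 and 312 RPKM without NAEK (limma adjusted p = 0.763), 156 and 249 RPKM in HEK293T cells with NAEK and 146 and 279 RPKM without NAEK. The cause was not tested.

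Relative to coding density, 3 transcripts differed between the lines only in the fit with the replicate number as a block and at least 200 reads. ENST00000547176, with a second region of 27 nt, had 232 and 163 RPKM in transgenic cells with NAEK and 217 and 234 RPKM without NAEK, against 54.0 and 107 RPKM in HEK293T cells with NAEK and 79.4 and 181 RPKM without NAEK (log2 difference of the ratio 1.09, limma adjusted p = 0.00980, against 0.310 without the block and that minimum). ENST00000486310 (log2 -1.11, limma adjusted p = 0.00980) and ENST00000533297 (log2 -0.92, limma adjusted p = 0.0419) had a lower ratio in transgenic cells. In ENST00000486310 the second extended density was 25.8 to 38.9 RPKM in transgenic and 47.3 to 80.0 RPKM in HEK293T libraries, and the coding density 38.0 to 46.9 against 32.2 to 42.9 RPKM. In ENST00000533297 the second extended density overlapped, at 11.1 to 18.7 RPKM in transgenic and 10.1 to 14.6 RPKM in HEK293T libraries, while the coding density was 20.6 to 35.6 against 7.37 to 15.9 RPKM.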
